A study of Arabidopsis thaliana with 12 samples.

Results

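The regions described here are 215 *nrpe1* DMRs that took part in chromosomal interactions in at least 1 of the 3 *nrpe1* Hi-C libraries. They were chosen by that readout, as the differentially methylated regions whose exact position is in at least 1 of the 3 lists deposited for *nrpe1*, and they are 215 of the 541 different DMRs in the 6 lists of *nrpe1* and *ago4*. Of the 215, 107 were also in an *ago4* list and are called shared, and 108 were in no *ago4* list and are called *nrpe1*-only. The other 326 DMRs were in *ago4* lists only. Which list holds a DMR is what chose the members, so the numbers of members, their sharing and their recurrence are described below without a test.

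Hi-C was performed in above-ground tissue of Arabidopsis seedlings of 3 genotypes in 3 biological replicates, and rRNA-depleted RNA of *ago4* seedlings was sequenced in 3. The genotypes were Col-0, which is the wild type, *nrpe1* (allele *nrpd1b-11*, in the Col-0 background) and *ago4* (allele *ago4-1*, introgressed into Col-0, so that *ago4* plants may carry a segment of another accession around the mutation). The labels give an age of 2 to 3 weeks under long days, and no treatment separated the genotypes. The lists of Col-0 were not analysed here, so every comparison below is between members or between the mutants, and none is with the wild type.

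RNA-directed DNA methylation (RdDM) is the plant pathway in which small RNAs guide DNA methylation to transposons and other repeats. NRPE1 is the largest subunit of RNA polymerase V, which makes the non-coding scaffold transcripts at target loci, and AGO4 is the argonaute protein that carries small RNAs to those transcripts. The pathway is known for methylation of cytosines in the CHH context (H is any base but G), and an *nrpe1* DMR is a region that loses this methylation when NRPE1 is mutated. Hi-C crosslinks chromatin, cuts it with a restriction enzyme, here *Dpn*II, which cuts at GATC, and ligates ends that lie close together, so that a pair of sequenced ends reports a contact.

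Sequences are shown for 8 short members because they let the reader see what a listed region holds, namely its CHH cytosines and the *Dpn*II sites through which a contact can be captured. Capitals mark GATC, and each sequence is the plus strand of TAIR10.1 (RefSeq), 5′ to 3′. The first 5 were in all 3 *nrpe1* lists and are shared. The last 3 are *nrpe1*-only, and of these the DMRs near *hemb2* and *SWEET6* were in the lists of replicates 2 and 3 and the DMR near AT4G24644, the shortest member at 86 bp, in the list of replicate 1.
DMR near *NUDX25*, chr1:10579377-10579500: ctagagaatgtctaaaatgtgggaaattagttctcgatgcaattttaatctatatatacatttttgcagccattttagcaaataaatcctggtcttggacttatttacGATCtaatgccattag
DMR beside the rRNA gene AT2G01020, chr2:5578-5778: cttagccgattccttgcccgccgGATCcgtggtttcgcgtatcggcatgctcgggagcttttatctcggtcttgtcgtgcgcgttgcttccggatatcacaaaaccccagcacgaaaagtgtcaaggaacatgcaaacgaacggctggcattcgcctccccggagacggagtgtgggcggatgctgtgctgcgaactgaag
DMR near *GRP9*, chr2:1992560-1992764: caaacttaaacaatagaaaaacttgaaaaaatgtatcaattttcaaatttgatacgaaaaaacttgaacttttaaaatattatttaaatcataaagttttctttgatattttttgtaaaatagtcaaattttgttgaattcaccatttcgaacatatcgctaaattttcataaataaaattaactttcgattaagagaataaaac
DMR near AT2G04735, chr2:1420782-1421002: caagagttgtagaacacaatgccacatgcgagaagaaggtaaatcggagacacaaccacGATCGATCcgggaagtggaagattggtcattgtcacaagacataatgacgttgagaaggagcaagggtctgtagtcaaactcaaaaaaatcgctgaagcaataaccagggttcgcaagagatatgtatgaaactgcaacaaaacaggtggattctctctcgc
DMR near *TT8*, chr4:6180197-6180432: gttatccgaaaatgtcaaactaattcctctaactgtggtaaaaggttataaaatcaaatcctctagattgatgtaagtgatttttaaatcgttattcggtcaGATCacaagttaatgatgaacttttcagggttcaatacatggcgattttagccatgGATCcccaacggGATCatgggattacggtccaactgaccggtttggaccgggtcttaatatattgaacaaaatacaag
DMR near *hemb2*, chr1:16830449-16830551: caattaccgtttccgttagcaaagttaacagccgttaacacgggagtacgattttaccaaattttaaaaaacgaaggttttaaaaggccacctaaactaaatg
DMR near *SWEET6*, chr1:24907420-24907627: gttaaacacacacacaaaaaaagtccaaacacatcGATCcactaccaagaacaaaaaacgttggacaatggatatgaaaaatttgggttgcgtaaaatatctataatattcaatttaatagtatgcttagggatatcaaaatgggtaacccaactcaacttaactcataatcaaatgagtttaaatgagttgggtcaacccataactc
DMR near AT4G24644, chr4:12719828-12719913: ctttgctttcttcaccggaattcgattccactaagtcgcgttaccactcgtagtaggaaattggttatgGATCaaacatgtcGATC

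These 8 sequences hold from 0 to 3 *Dpn*II sites. The DMR near *TT8* has 3 of them in 236 bp, while the DMR near *GRP9* (205 bp) and the DMR near *hemb2* (103 bp) have none, so neither holds a ligation site of its own. GC content differed widely among them, from 19.5% near *GRP9* to 57.7% beside the rRNA gene. Every one of the 541 DMRs begins on a CHH cytosine and has a CHH cytosine as its last base when starts are counted from 1 and the listed end is left out. Positions below follow that reading.

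The 3 *nrpe1* lists differed in size and in how much they overlapped. Replicate 1 listed 50 DMRs, replicate 2 listed 176 and replicate 3 listed 65. Replicate 2 thus had the longest list. Of its 176 DMRs, 115 (65.3%) were in no other *nrpe1* list. In replicate 1 this held for 28 of 50 (56.0%), and in replicate 3 for 9 of 65 (13.8%). Replicates 2 and 3 without replicate 1 accounted for 41 members, replicates 1 and 2 without replicate 3 for 7, and replicates 1 and 3 without replicate 2 for 2. In all, 152 members were in 1 *nrpe1* list, 50 were in 2 and 13 were in all 3. The lists give no contact counts, so the depth behind a listing is unknown. By default the study's methods kept highly scoring interactions for such overlaps. Whether that score cutoff was applied to these lists is not stated for them. A DMR missing from a list is therefore not shown to lack interactions.

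Members that recurred among the *nrpe1* replicates were also more often listed in *ago4*. Of the 152 members in 1 *nrpe1* list, 57 were in an *ago4* list (37.5%, 95% Wilson interval 30.2% to 45.4%). Of the 50 in 2 *nrpe1* lists the number was 38 (76.0%, 62.6% to 85.7%), and of the 13 in all 3 it was 12 (92.3%, 66.7% to 98.6%). These intervals cover counting error only, and neighbouring DMRs are not independent. Presence in all 3 *ago4* lists had the same order, with 3 of 152 members (1.97%), 7 of 50 (14.0%) and 6 of 13 (46.2%). Seen from the other side, 50 of 107 shared members (46.7%) were in at least 2 *nrpe1* lists, against 13 of 108 *nrpe1*-only members (12.04%), a difference of 34.7 percentage points, given as a description because list membership chose the members. The difference was smaller without the lists of replicate 2 or of replicate 3. Leaving out a replicate removed the lists of that number in both genotypes, so members could also change class. Without replicate 2 the difference was 9.09 points (20.0% against 10.9%), and without replicate 3 it was 13.7 points (17.2% against 3.54%). Without replicate 1 it was 37.0 points.

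**Figure D1:**
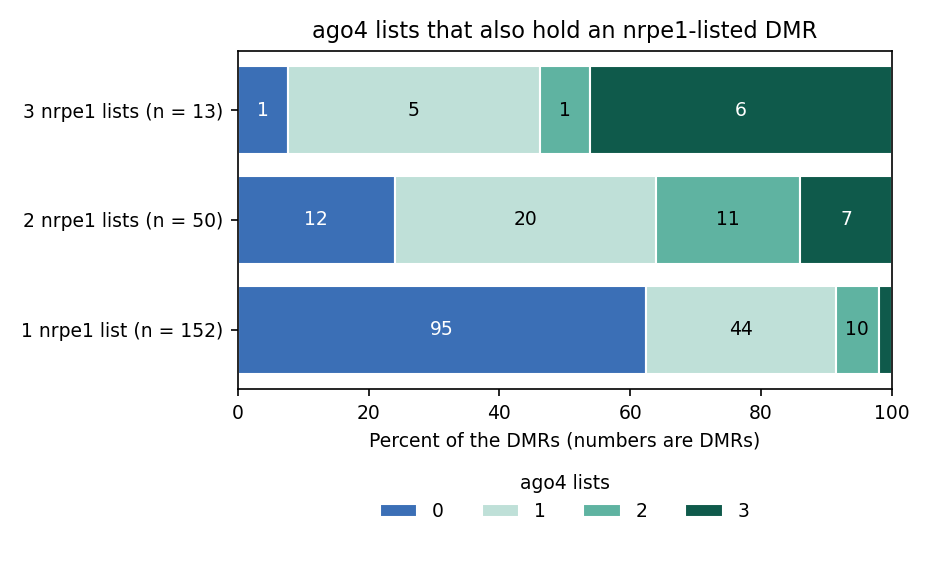
Percent of members (horizontal axis) in 0, 1, 2 or 3 *ago4* lists, for members in 1, 2 or 3 *nrpe1* lists, with the number of DMRs printed in each segment except the segment of 3 DMRs at the end of the lowest bar. The segment for no *ago4* list shrinks from 95 of 152 DMRs to 12 of 50 and 1 of 13.

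Recurrence among the *ago4* lists gave no such order. Of the DMRs in 1 *ago4* list 27.3% were in an *nrpe1* list (69 of 253), of those in 2 lists 20.8% (22 of 106) and of those in all 3 lists 21.6% (16 of 74). Of the 107 shared members, 69 were in 1 *ago4* list, 22 in 2 and 16 in all 3.

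The share of each *nrpe1* list found in any *ago4* list was 60% in replicate 1 (30 of 50, Wilson interval 46.2% to 72.4%), 50.6% in replicate 2 (89 of 176, 43.2% to 57.9%) and 76.9% in replicate 3 (50 of 65, 65.4% to 85.5%). The mean was 62.5% ± 13.4 (SD, n = 3). Replicate 3 had the highest share and replicate 2 the lowest. Conversely, 16.7%, 29.8% and 22.2% of *ago4* lists 1, 2 and 3 were in any *nrpe1* list (36 of 215, 79 of 265 and 46 of 207). List by list, the largest overlap for *nrpe1* replicates 1, 2 and 3 was with *ago4* replicate 2, at 38.0%, 40.3% and 66.2%. That *ago4* list is also the longest. Overlap with *ago4* replicate 1 was 36% for *nrpe1* replicate 1, 13.6% for replicate 2 and 24.6% for replicate 3, and overlap with *ago4* replicate 3 was 32.0%, 22.7% and 41.5%.

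**Figure D2:**
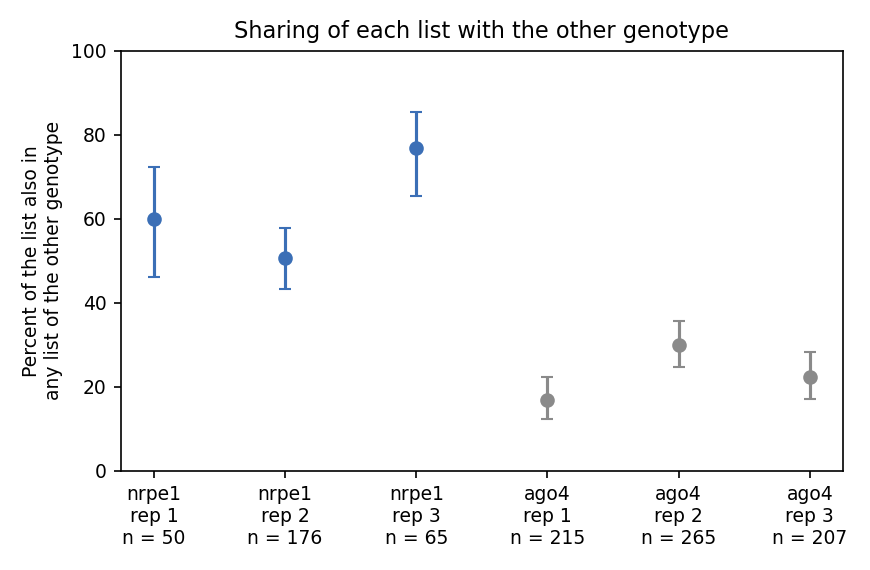
Percent of each list also in any list of the other genotype (vertical axis), with 95% Wilson intervals as bars, which cover counting error only, and the number of DMRs under each list. The *nrpe1* lists lie between 50.6% and 76.9% and the longer *ago4* lists between 16.7% and 29.8%.

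The 13 members in all 3 *nrpe1* lists lie on each of the 5 chromosomes. Those in all 6 lists were 6 in number. On chromosome 1, a DMR of 124 bp (10579377 to 10579500) lies 2235 bp upstream of *NUDX25* (AT1G30110), which encodes a ppGpp pyrophosphohydrolase. On chromosome 2, a DMR of 512 bp (1629 to 2140) overlaps a coding exon of AT2G01008, and a DMR of 201 bp (5578 to 5778) ends 4 bp before the rRNA gene AT2G01020. A further one of 221 bp (1420782 to 1421002) lies 539 bp before AT2G04735, a gene for a long non-coding RNA. The DMR of 1286 bp on chromosome 4 (7580305 to 7581590) lies 1649 bp upstream of *GILT* (AT4G12960), named for a lysosomal thiol reductase. The last, 654 bp on chromosome 5 (13759158 to 13759811), is pericentromeric and lies 163 bp from the pseudogene AT5G35575.

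A DMR of 205 bp on chromosome 2 (1992560 to 1992764) was in all 3 *nrpe1* lists and in *ago4* lists 2 and 3. It lies 274 bp upstream of *GRP9* (AT2G05440), which encodes a glycine-rich protein. A further 5 of the 13 were in 1 *ago4* list each. They are 493 bp on chromosome 1 (20399384 to 20399876), 335 bp from AT1G54620, a gene of the pectin methylesterase inhibitor superfamily, and 461 bp on the same chromosome (23240148 to 23240608), 53 bp from the pseudogene AT1G62766. On chromosome 3 a DMR of 1055 bp (11099291 to 11100345) overlaps the non-coding part of an exon of AT3G29130, which encodes a protein with a KxDL motif. On chromosome 4 a DMR of 236 bp (6180197 to 6180432) lies 1449 bp upstream of *TT8* (AT4G09820), a bHLH transcription factor of flavonoid synthesis in the seed coat. On chromosome 5 a DMR of 327 bp (17147387 to 17147713) lies 1095 bp upstream of AT5G42760, annotated as a leucine carboxyl methyltransferase. The first 3 and the last of these were in *ago4* list 2, and the DMR near *TT8* was in *ago4* list 3.

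The remaining member of the 13 was in no *ago4* list. It spans 1032 bp on chromosome 2 (11162161 to 11163192), overlaps the pseudogene AT2G26220, lies 1383 bp from AT2G26230 (a uricase gene) and has no *Dpn*II site. A different DMR that is in an *ago4* list lies 729 bp away from it, so the exact-position rule sets it apart from *ago4* while a neighbouring region was listed there.

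The 12 other recurrent *nrpe1*-only members were in 2 *nrpe1* lists. The first 5 by position all lie on chromosome 1 and were in the lists of replicates 2 and 3. They comprise 1890 bp over the pseudogene AT1G17900 (6157230 to 6159119) and 345 bp over the pseudogene AT1G28002 (9759140 to 9759484). The other 3 lie upstream of protein-coding genes. A DMR of 103 bp (16830449 to 16830551) is 465 bp upstream of *hemb2* (AT1G44318), annotated as an aldolase superfamily protein, a DMR of 362 bp (21342216 to 21342577) is 50 bp upstream of AT1G57620, a gene of the p24 family of membrane trafficking proteins, and a DMR of 208 bp (24907420 to 24907627) is 184 bp upstream of *SWEET6* (AT1G66770), a member of a family of sugar transporters. The nearest DMR in an *ago4* list was 1576 bp away for the DMR near *hemb2*, and 50606 to 149081 bp away for the other 4.

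Several members lie at the start of chromosome 2, where the reference assembly holds a copy of the rRNA genes that are repeated in large arrays. This group was singled out after its values had been seen. The first 20000 bp of the chromosome hold 7 listed DMRs, of which 6 were members, and these 6 were shared. Of the 13 members in all 3 *ago4* lists and at least 2 *nrpe1* lists, 4 lie here. They are the DMRs at 1629 and 5578 described above, a DMR of 184 bp (3400 to 3583) that ends 123 bp before the rRNA gene AT2G01010, and a DMR of 553 bp (9674 to 10226) over a coding exon of AT2G01023. The other members here, at 15622 to 15840 and 15944 to 16353 over the pseudogene AT2G01024, were in replicate 1 of both genotypes and in no other list. Of the 6, 5 were in the list of *nrpe1* replicate 1 and all 6 in that of *ago4* replicate 1. Their GC content was 42.3% to 57.7%, against a median of 31.6% over the 215 members. The percentage of their 50-mers that occur once in the genome was 41.6% to 90.5%, against a median of 100% over all members. Reads from the repeated arrays and from this copy cannot be told apart where the sequence is the same, and the part of this in the listings was not tested.

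Some members were close neighbours. Pairs were sought among members only, so both DMRs of a pair are in an *nrpe1* list by choice. Neighbours in no list were not seen. Among the 326 DMRs in *ago4* lists only, 1 lies within 250 bp of a member. Of the 215 members, 12 lie within 250 bp of another member, as 6 pairs with 103 to 142 bp between them. In 6 of 6 pairs both DMRs had the same class and were in the same *nrpe1* lists, and in 5 of 6 they were also in the same *ago4* lists. Since interactions were assigned to 250 bp windows, the DMRs of such a pair can fall in adjacent windows or in the same window. Within 10 kb of another member there were 46 members. Of the 108 *nrpe1*-only members, 12 (11.1%) had a DMR of an *ago4* list within 10 kb.

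Members lay on all 5 chromosomes, with the highest share of shared members on chromosome 2. Chromosomes 1 to 5 held 53, 52, 32, 39 and 39 members. Chromosome 2 held 24.2% of members and 16.5% of nuclear bases. The share on chromosome 2 was 19.4% among *nrpe1*-only members (21 of 108), 29.0% among shared members (31 of 107) and 36.2% among DMRs in *ago4* lists only (118 of 326). By library, chromosome 2 took 34.0%, 22.2% and 27.7% of *nrpe1* lists 1, 2 and 3 and 36.7%, 31.7% and 32.9% of *ago4* lists, so that the ranges of the genotypes overlap. Among members, the shared part was 59.6% on chromosome 2 and 56.4% on chromosome 4 (31 of 52 and 22 of 39). On chromosomes 1, 3 and 5 it was 43.4%, 40.6% and 46.2%. Of the 31 shared members on chromosome 2, 6 are those in its first 20000 bp described above. Of these 6, 5 were in *nrpe1* list 1 and 6 in *ago4* list 1. *AGO4* lies on chromosome 2, so a segment introgressed with *ago4-1* would lie there too. The part of either in these shares was not tested.

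**Figure D3:**
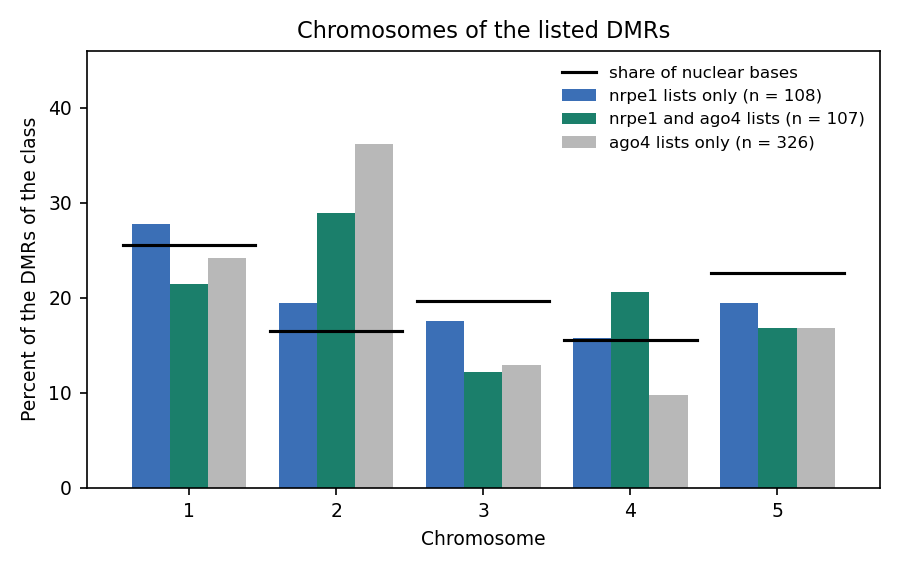
Percent of the DMRs of each class on each chromosome (bars, vertical axis from 0) and the share of nuclear bases on that chromosome (black lines). On chromosome 2 the bars step up from 19.4% of *nrpe1*-only members to 29.0% of shared members and 36.2% of DMRs in *ago4* lists only, above a share of bases of 16.5%. Of the 31 shared members on chromosome 2, 6 lie in its first 20000 bp, beside the rRNA genes. This chromosome also carries *AGO4*.

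Near a centromere, here within 2.5 Mb of the middle of the 1 Mb window poorest in protein-coding genes, lay 52 members (24.2%), where 21.0% of the genome lies. This held for 23 of 107 shared members (21.5%) and 29 of 108 *nrpe1*-only members (26.9%). In the list of replicate 2, 19.1% of shared and 28.7% of *nrpe1*-only members were pericentromeric. In replicate 3 the order was opposite, with 20.0% and 6.67%, and in replicate 1 both were 20.0%. The order of the classes thus changed between libraries. The mean difference was 1.23 ± 11.5 points (SD, n = 3, two-sided exact sign-flip permutation test over libraries, p = 1). With 3 libraries this test cannot give a p below 0.25, so it does not show that the classes are alike.

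Length varied over 2 orders of magnitude among members. The median was 413 bp with quartiles of 266 and 669.5 bp, and the longest spanned 11350 bp. That DMR, on chromosome 2 (1827968 to 1839317), overlaps AT2G05105, holds 36 *Dpn*II sites, touches 47 windows and yet was listed only in replicate 1 of both genotypes. The next in length, chosen after their values were seen, were 7409 and 5715 bp long and lie near each other on chromosome 4 (1669183 to 1676591 and 1680094 to 1685808). Both overlap pseudogenes (AT4G03760 and AT4G03775) and were in 1 *nrpe1* list. These 3 are shared, and the longest *nrpe1*-only member was 2299 bp. Recurrence was highest among the shortest members. Of 49 members up to 250 bp, 26 were in at least 2 *nrpe1* lists (53.1%, Wilson interval 39.4% to 66.3%), against 18 of 81 over 250 and up to 500 bp (22.2%), 10 of 49 over 500 and up to 1000 bp (20.4%) and 9 of 36 over 1000 bp (25%, 13.8% to 41.1%). Sharing with *ago4* showed no such order, with 55.1%, 41.98%, 55.1% and 52.8% in the same classes.

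The lengths of shared and *nrpe1*-only members overlapped widely. The median was 438 bp for shared and 391.5 bp for *nrpe1*-only members, and 397.5 bp for DMRs in *ago4* lists only. Library by library, the median of shared members was 451.5, 433 and 398.5 bp in replicates 1, 2 and 3, against 338.5, 438 and 249 bp for *nrpe1*-only members. The difference was positive in 2 of 3 libraries and averaged 85.8 ± 80.8 bp (SD, n = 3, two-sided exact sign-flip permutation test, p = 0.5, Benjamini-Hochberg p = 0.8 over 8 measures). With 3 libraries this test cannot give a p below 0.25, so no difference between the classes can pass a threshold of 0.05, and a p above it does not show that the classes are alike. The mean difference was 16.8 bp without the replicate 2 lists of both genotypes, a change by which some members also change class. It was 16.7 bp when only the *ago4* list of the same replicate number counted as sharing, and 285 bp with means in place of medians.

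Each list gives 2 further numbers per DMR without a label. Both were identical in every list that holds a DMR, for 541 of 541 DMRs, so they belong to the DMR and not to a Hi-C library. The first ran from 177 near *GRP9* to 51998 for the longest member, with a median of 1084, and the second was never more than 0.243 of it. Across members the first followed length (Pearson r = 0.82 on log2 scales, n = 215) and more closely the number of CHH cytosines (r = 0.97, n = 215, a value to which the few longest DMRs contribute strongly). Both relations share the DMR boundaries and are descriptions. Per CHH cytosine the first number had a median of 11.3 among members (2.89 to 45.2). The second number was 0 for 25 members (11 shared and 14 *nrpe1*-only).

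**Figure D4:**
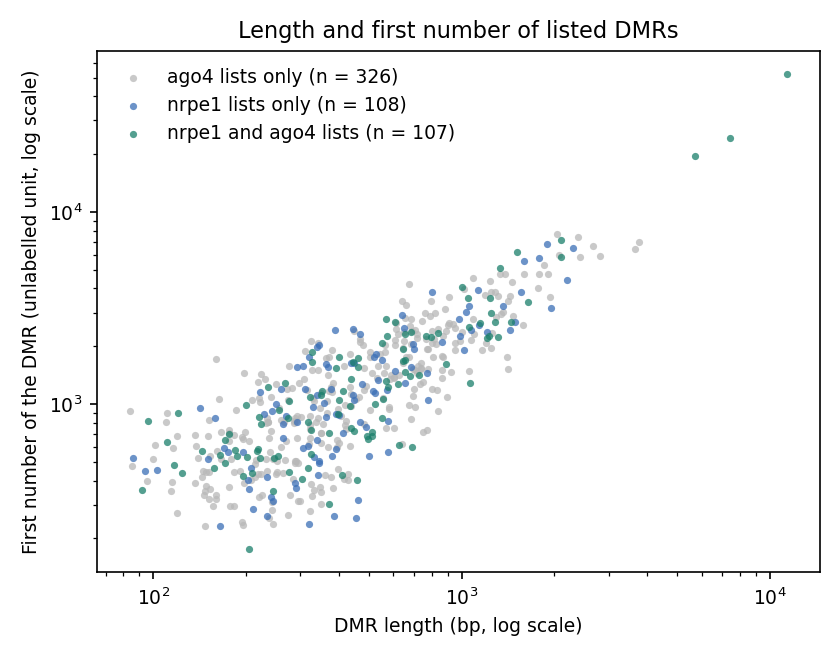
Length of each listed DMR (horizontal axis, bp, log scale) against the first unlabelled number (vertical axis, no unit given, log scale), 1 point per DMR, coloured by class. The 107 shared and 108 *nrpe1*-only members lie in the same band as the 326 DMRs of *ago4* lists only, apart from 3 shared members of 5715 to 11350 bp at the upper right.

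The first number, and the second divided by the first, were compared between the classes. The median first number of shared members was 924, 1084 and 1025 in the lists of replicates 1, 2 and 3, against 626, 1167 and 920 for *nrpe1*-only members (mean difference 107 ± 190 (SD, n = 3), exact sign-flip permutation p = 0.5). The median of this quotient was 0.0333 for shared and 0.0296 for *nrpe1*-only members overall. Its difference between the classes by library averaged 0.00993 ± 0.0227 (SD, n = 3, exact permutation p = 0.75). The second number itself, with medians of 28.6 for shared and 47.0 for *nrpe1*-only members, was not tested.

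Most members, like most listed DMRs, lie between genes but near one. Of the 215, 155 (72.1%) are intergenic, 20 overlap a pseudogene, 15 a coding exon, 14 the non-coding part of an exon, 7 a non-coding RNA gene and 4 an intron. Among the 541 listed DMRs, 392 (72.5%) are intergenic and 439 (81.1%) lie within 2 kb of a protein-coding gene. The share of the genome that lies so near a gene was not computed. Within 2 kb of a protein-coding gene were 183 members (85.1%), 93 of them upstream of the nearest gene and 57 downstream. Over all lists this held for 91 of 107 shared (85.0%) and 92 of 108 *nrpe1*-only members (85.2%), against 256 of 326 (78.5%) in *ago4* lists only. Replicate 1 went against the other replicates here, with 73.3% of shared and 95% of *nrpe1*-only members near a gene, against 88.8% and 82.8% in replicate 2 and 90% and 86.7% in replicate 3 (mean difference -4.11 ± 15.3 points (SD, n = 3), exact sign-flip permutation p = 1). With a distance of 1 kb the mean difference was -9.58 points (exact permutation p = 0.25) and with 5 kb -6.67 points (p = 1 by the same exact test). Of 17 genes of the RdDM pathway, 0 had a member within 2 kb. The 183 members near a gene compare with 27444 nuclear protein-coding genes, so few genes of any kind have a member so near. That share of all genes was not computed, and the count of 0 is not a result about the pathway. The nearest of the 17 was *DRD1* (AT2G16390), a chromatin remodeller of the pathway, at 8034 bp from an *nrpe1*-only member. Next were *DMS3* (AT3G49250) at 11459 bp and *RDR2* (AT4G11130), the RNA polymerase that makes the double-stranded precursors of small RNAs, at 12013 bp. *AGO4* itself (AT2G27040) was 27424 bp from the nearest member. None of the 12 primer sites that the study used for 3C lies within 10 kb of a member, and the closest is 20728 bp away.

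A mean log2 CPM over the *ago4* and Col-0 seedling libraries, the authors' value with no spread between replicates, was available for the nearest protein-coding gene of 92 of 215 members (42.8%), and for 16151 of 27444 nuclear protein-coding genes (58.9%). It ran from -0.04 to 8.43 among the genes next to members. Its median was 3.17 for the genes next to 46 shared members and 3.00 for those next to 46 *nrpe1*-only members. It was 2.58 for those next to 147 DMRs in *ago4* lists only, and 2.90 over the 16151 genes. These medians leave out genes without a value, which are the greater part of the genes next to members. Among the genes next to the 13 members of all 3 *nrpe1* lists, 7 had a value, from -0.03 for AT2G04170, the nearest protein-coding gene to the DMR by the lncRNA gene AT2G04735, to 8.29 for AT2G01021 beside the rRNA genes. Expression in *nrpe1* was not analysed here.

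*Dpn*II sites were present in 149 of 215 members (69.3%), in 74 of 107 shared (69.2%) and in 75 of 108 *nrpe1*-only members (69.4%). Among DMRs in *ago4* lists only, 198 of 326 (60.7%) had a site. Members of 150 to 250 bp had a site in 22 of 38 cases (57.9%), where 48.7% of 200 bp tiles of the genome have one, and members of 300 to 500 bp in 45 of 67 cases (67.2%), where 72.3% of 400 bp tiles do. The density of sites, taken as all sites over all bases of a class so that long DMRs weigh most, was higher among shared than among *nrpe1*-only members in 3 of 3 libraries. The 3 longest members, all of them shared, hold 36, 37 and 32 of the 277 sites of shared members. Their part in this order was not tested. The density was 3.94, 3.07 and 2.64 sites per kb in shared members of replicates 1, 2 and 3 and 3.56, 2.53 and 2.42 in *nrpe1*-only members (mean difference 0.379 ± 0.159 sites per kb (SD, n = 3), exact sign-flip permutation p = 0.25, the smallest possible, Benjamini-Hochberg p = 0.8). The genome has 3.64 per kb.

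GC content gave the same order of the classes. The median was 36.6%, 31.6% and 32.6% in shared members of replicates 1, 2 and 3 and 30.2%, 31.4% and 32.1% in *nrpe1*-only members (mean difference 2.33 ± 3.52 points (SD, n = 3), exact sign-flip permutation p = 0.25, Benjamini-Hochberg p = 0.8). Replicate 1 carried most of it, and without the replicate 1 lists of both genotypes the mean difference was 0.258 points. The 5 members at the rRNA genes that are in the list of replicate 1, with GC contents from 46.9% to 57.7%, are among its 30 shared members. The median over all members, 31.6%, is below the 36.03% of the nuclear genome.

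The members consisted largely of unique sequence, and the *nrpe1* lists had higher medians of this measure than the *ago4* lists. A 50-mer was called unique if it occurs once in the genome on either strand. All 50-mers were unique in 114 of 215 members (53.0%), in 51 of 107 shared members (47.7%) and in 63 of 108 *nrpe1*-only members (58.3%). This was so in 98 of 326 DMRs in *ago4* lists only (30.1%). By library, the median percentage of unique 50-mers was 98.5%, 100% and 100% in *nrpe1* lists 1, 2 and 3 and 93.2%, 95.9% and 94.4% in *ago4* lists. The ranges do not overlap, and the difference was 5.004 ± 0.766 points (SD, n = 3 pairs, two-sided exact sign-flip permutation test, p = 0.25, the smallest possible, Benjamini-Hochberg p = 0.5 over 8 measures). An exact permutation of the 6 libraries without pairs gave p = 0.1, also the smallest possible (Benjamini-Hochberg p = 0.533 over 8 measures). Medians of *nrpe1* lists 2 and 3 were at the highest possible value. The difference was 10.3 points with 36-mers and 2.81 points with means in place of medians, each with exact sign-flip permutation p = 0.25. Within the *nrpe1* lists, shared members had medians of 92.9%, 100% and 99.7% and *nrpe1*-only members of 100% in 3 of 3 libraries (mean difference -2.49 ± 4.02 points, exact sign-flip permutation p = 0.5). Only uniquely aligned reads were used for the Hi-C contacts, and the part of alignment in these listings was not tested.

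**Figure D5:**
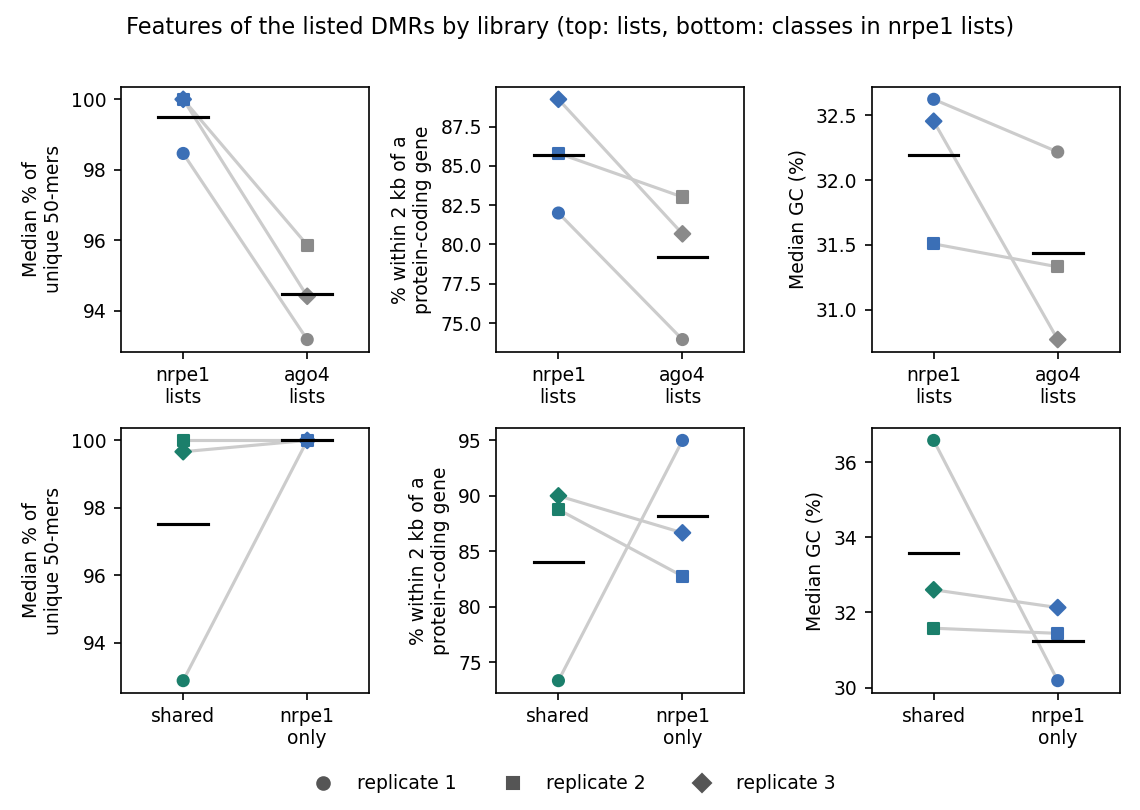
Values per library for the median percent of unique 50-mers, the percent of DMRs within 2 kb of a protein-coding gene and the median GC percent, with *nrpe1* against *ago4* lists in the upper row and shared against *nrpe1*-only members of the *nrpe1* lists in the lower row. Symbols are replicates, grey lines join the values of a replicate number, black bars are means, and the vertical axes do not start at 0. Unique 50-mers are the measure in which the lists of the genotypes do not overlap, with 98.5% to 100% in *nrpe1* and 93.2% to 95.9% in *ago4*.

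The other features of the lists overlapped between genotypes. The share within 2 kb of a protein-coding gene was 82.0%, 85.8% and 89.2% in *nrpe1* lists 1, 2 and 3 and 74.0%, 83.0% and 80.7% in *ago4* lists, higher in *nrpe1* in 3 of 3 pairs (mean difference 6.46 ± 3.20 points (SD, n = 3), exact sign-flip permutation p = 0.25, Benjamini-Hochberg p = 0.5). The difference was 2.96 points for a distance of 1 kb and 1.06 points for 5 kb (exact permutation p = 0.25 and 1). GC content was higher in *nrpe1* lists in 3 of 3 pairs by 0.756 ± 0.813 points (exact sign-flip permutation p = 0.25). Without replicate 3 this was 0.292 points, and without the DMRs of chromosome 2 it was 0.0545 points (exact permutation p = 0.75). The pericentromeric share was higher in 3 of 3 pairs by 2.10 ± 1.51 points (exact sign-flip permutation p = 0.25). Without pairs, the exact permutation of the 6 libraries gave p = 0.5 for the pericentromeric share and p = 0.2 for the share near a gene and for GC content. The correlations between same-numbered libraries do not show that the numbers pair the samples. Median length was 394.5, 435 and 352 bp in *nrpe1* lists and 381, 418 and 433 bp in *ago4* lists (mean difference -16.8 ± 55.6 bp (SD, n = 3), exact permutation p = 1). The first number was 722, 1161 and 957 against 1071, 1092 and 1182 (exact permutation p = 0.5), and the density of *Dpn*II sites was 3.86, 2.79 and 2.60 against 3.53, 2.78 and 2.73 per kb (exact permutation p = 0.75). Many DMRs enter several lists, so these libraries are compared with partly the same regions.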

How the data were processed

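The authors mapped each end of uniquely aligned Hi-C pairs to TAIR10 with Bowtie, called interactions between 250 bp windows, filtered features on mappability, and intersected published *nrpe1* DMRs with interactions, highly scoring ones unless otherwise indicated. 1 list was deposited for each of the 3 replicates of *nrpe1* and of *ago4*, with 2 numbers per DMR that carry no label and are recorded as an unspecified score. The depth is unknown. From the authors' deposited RNA-seq table, mapped with TopHat2, the mean log2 CPM was used. Its columns for the fold change and the p-value of *ago4* against Col-0 were not used.

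Lists were assigned by genotype and replicate number. DMRs were matched by exact position and annotated on TAIR10.1 (RefSeq). 1 summary per library was compared by exact two-sided sign flips over libraries or pairs, after the study's paired test. P-values measure only the spread between these 3 biological replicates. DMRs named were those in all 3 *nrpe1* lists, the first 5 *nrpe1*-only DMRs by position in 2 lists, the longest and shortest members, and any within 10 kb of 3C primers. Members, lists and rules were chosen with earlier results of these data known. Code was tested on simulated data with Python 3.11.15, numpy 2.4.6, pandas 2.3.3 and matplotlib 3.10.9. Alternatives included other sharing rules, distances and k-mers (36 bases), and leaving out each replicate number in both genotypes, chromosome 2 or pericentromeric DMRs.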

Additional observations from a re-analysis of the deposited data

How the results depend on the processing

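Of 134 recomputed contrasts with a test, 120 kept their direction, and none could pass 0.05. For shared minus *nrpe1*-only members, leaving out 1 replicate removed the lists of that number in both genotypes, so some members also changed class. Each replicate in turn gave -29.4 to 114 for the first number and -0.00488 to 0.0238 for the ratio. It gave -17.1 to 9.23 points for the share near a gene. For the pericentromeric share it gave -8.62 to -4.47 points, against 1.23 points with all replicates. Counting as shared only DMRs in the *ago4* list of the same replicate number gave -88.5 and -10.3 points for the first number and the pericentromeric share. For *nrpe1* minus *ago4* lists, leave-one-out gave -33.8 to 15.2 bp for length and -0.0649 to 0.169 sites per kb for *Dpn*II. Means in place of medians gave 56.0 bp for length, 319 for the first number and 0.00501 for the ratio. The share of members in an *ago4* list was 49.8%, and 79.4% among members in at least 2 *nrpe1* lists. The recurrence difference of 34.7 points ranged from 9.09 to 37.0 with 1 replicate left out in both genotypes, which also leaves fewer lists in which to recur or be shared. This alternative was chosen after seeing the data.

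Without the replicate block, the mean differences between *nrpe1* and *ago4* lists are the same (5.004 points for unique 50-mers), and exact permutation of 6 libraries gave p from 0.1 to 0.8. Over 541 DMRs, the deviations of same-numbered libraries had correlations of 0.159, 0.111 and -0.00483. Those of differently numbered libraries ran from -0.168 to 0.0581. Thus 0.159 and 0.111 lie above that range and -0.00483 lies within it, so the numbers are not shown to pair the samples. Sharing could be assessed only as presence in a list, since the lists hold no contact counts, and no Col-0 list was analysed here.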
